A study of Homo sapiens with 7 samples.

Results

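ARID1A-/- line 1, a derivative of the human neuroblastoma cell line NGP in which the labels give both copies of ARID1A as mutated, was set against control NGP cells. The members were chosen by title: the 2 libraries of line 1 and the 2 of control NGP cells, paired within the kit that made them. These are 4 of the 7 libraries of the series. The SMARTer Universal Low Input kit made the first library of each, and the KAPA mRNA HyperPrep kit the repeat. ARID1A-/- line 2, with a library from each kit, and an ARID1A+/- line, with 1 KAPA library, served to show where line 1 differed from other ARID1A mutants. All cells, control included, were grown with fetal bovine serum and puromycin. Neither the site of a mutation nor the clonality of a line is stated, and separate cultures are not stated for the libraries of a line. P-values thus reflect spread that may be only technical, and with a single control line the genotype and the history of a line cannot be told apart.

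ARID1A binds DNA as part of the BAF (SWI/SNF) complex, which uses ATP to move nucleosomes and keeps many enhancers open. Neuroblastoma cells occur in an adrenergic state, which resembles sympathetic neurons and makes catecholamines, and in a mesenchymal state, which resembles migrating neural crest cells and makes extracellular matrix. The title of the series asks how loss of ARID1A bears on the shift between these states. The comparison with control shows what line 1 does, and the comparison with line 2 shows which of those differences are not common to both ARID1A-/- lines.

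The tables held 28517 named entries per library, with read counts and RPKM (reads per kilobase of an entry's length, scaled to the library total). The total count was between 31865626 and 41401185 in the line 1 libraries, between 28892053 and 40724353 in the line 2 libraries, 33032528 in the ARID1A+/- library, and between 24445301 and 43644361 in the control libraries. Of the entries, 14709 reached an average of 0.5 RPKM across the line 1 and control libraries, and these were tested. Just inside this limit were ACTL10 at a mean of 0.50015 RPKM and GPR126 at 0.50046 RPKM. Just outside it were DGCR11 at 0.49916 RPKM and SLITRK1 at 0.49881 RPKM. SLITRK1 had no count in either line 1 library and 0.915 and 1.08 RPKM in the control libraries, so the limit left out some genes with large differences. Libraries of the same kit deviated together, and each fit held a term for the kit. Pairs of RPKM values below are those of the SMARTer and then the KAPA library.

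The label of line 1 was first checked against the adrenergic cell type and against ARID1A itself. The adrenergic transcription factors HAND2, at 276 and 349 RPKM in line 1 and 321 and 349 RPKM in control, GATA3, at 129 and 83.8 RPKM in line 1 and 142 and 70.8 RPKM in control, and PHOX2A, at 349 and 220 RPKM in line 1 and 307 and 131 RPKM in control, were highly expressed in both and did not pass the threshold. ARID1A mRNA was at 16.7 and 17.2 RPKM in line 1, 14.2 and 13.8 RPKM in line 2, 19.9 RPKM in the ARID1A+/- library, and 22.3 and 22.0 RPKM in control. Both line 1 libraries lay below both control libraries and above both line 2 libraries. The log2 difference of line 1 from control in ARID1A was -0.38 ± 0.108 (SE), with an adjusted p of 0.0663 by edgeR's quasi-likelihood test, and DESeq2 gave -0.38 with an adjusted p of 0.0401. A frameshift or nonsense mutation need not lower the mRNA, and protein was not measured, so this value does not check the genotype.

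Of the other BAF and PBAF subunits, 4 rose, 3 fell and 23 of 30 measured did not pass the threshold in line 1 against control. The shares, 13.3% and 10%, compare with 4.76% and 8.42% of all tested genes. SMARCA2 (BRM), the alternative ATPase of the complex, was at 1.30 and 1.61 RPKM in line 1, 0.446 and 0.424 RPKM in line 2, 0.760 RPKM in the ARID1A+/- library, and 0.294 and 0.417 RPKM in control. It rose by 2.05 ± 0.25 on the log2 scale over control and was 1.75 ± 0.245 above line 2, and the line 1 libraries overlapped with no other. BRD7, a bromodomain subunit of PBAF, was at 20.9 and 26.2 RPKM in line 1, 32.9 and 41.9 RPKM in line 2, 46.0 RPKM in the ARID1A+/- library, and 39.0 and 50 RPKM in control. It fell by 0.91 ± 0.112 (log2, SE) against control, and it lies in a stretch of chromosome 16 whose genes were low together, described below. BCL7C, an accessory subunit, was at 23.9 and 21.2 RPKM in line 1, 12.8 and 14.7 RPKM in line 2, 10.7 RPKM in the ARID1A+/- library, and 6.28 and 9.59 RPKM in control. Its rise over control was 1.55 ± 0.228 on the log2 scale, and its difference from line 2 did not pass the threshold. After removal of the control SMARTer library, SMARCA2 (1.84) and BCL7C (1.23) no longer passed, and the list held 0 rises and 1 fall. Against line 2, SMARCA2 (1.57) and BRD7 (-0.59) no longer passed without the line 2 KAPA library, and BRD7 (-0.65) did not without the line 2 SMARTer library either. Without the line 1 SMARTer library the list held 2 rises and 1 fall, and without the control KAPA library 2 rises and 3 falls.

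Across all genes, line 1 lost more expression than it gained. Of the 14709 genes, 1938 passed an adjusted p of 0.05 against control (edgeR), which is 13.2% of those tested. Of these, 700 rose (4.76%) and 1238 fell (8.42%). Each of the 1938 had the same sign in the SMARTer pair and in the KAPA pair. The fit held both pairs and favours genes in which they are alike, so this shared sign is not separate evidence. The falls were also the larger changes: 370 genes fell by at least 2 on the log2 scale against 93 that rose by as much, and 85 fell by at least 5 against 9. The median over all genes was 0.011. In 44 of the tested entries both line 1 libraries held 0 counts, and in 15 both control libraries did. The number of calls depended on single libraries: 433 genes passed (100 rises, 333 falls) without the control SMARTer library, 600 (119 rises, 481 falls) without the control KAPA library, and 3091 (1277 rises, 1814 falls) without the line 1 KAPA library. With no term for the kit 482 passed (100 rises, 382 falls).

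**Figure D1:**
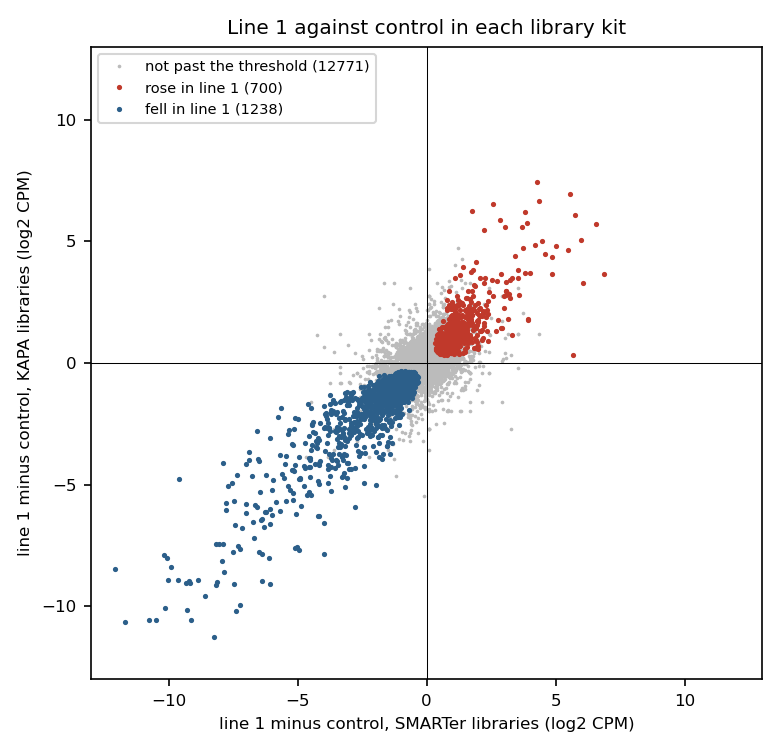
Log2 difference of line 1 from control in the KAPA pair (y axis) against that in the SMARTer pair (x axis), 1 point per tested gene. The 700 genes that rose and the 1238 that fell lie in the quadrants where both kits give the same sign, and the falls reach further from 0. Both pairs entered the test that called these genes, so the shared sign follows largely from the calling.

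Line 1 also differed from line 2 at 1856 genes, 12.6% of those tested, of which 852 were higher (5.79%) and 1004 lower (6.83%) in line 1. The comparisons with control and with line 2 use the same line 1 libraries, so they are given side by side. Genes past the threshold in both with the same sign are those in which line 1 stood apart from control and from line 2 together: 231 genes were higher (1.57%) and 453 lower (3.08%) in line 1. Against line 2, 806 genes passed without the line 2 SMARTer library, 721 without the line 2 KAPA library and 1192 without the control SMARTer library.

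The genes furthest below both control and line 2 were not detected, or nearly so, in line 1. They include genes that neural cells use at the membrane, such as PTPRZ1, a receptor phosphatase, DNER, a Notch ligand of neurons, and NETO1, an auxiliary subunit of glutamate receptors. Others have general or less known roles: ARMCX5 is a member of the armadillo repeat X-linked family, MAP10 a microtubule-associated protein, and SPIN3 a member of the spindlin family, whose members read histone methylation. For these last 3, which every other line expressed above 1 RPKM, and for the 2 clearest gains of line 1 described after them, the sequence around the gene start is shown, as the local sequence of genes whose expression differed between undetected and detected. The sequences are from RefSeq on GRCh38.p14, run from 250 bases before to 50 bases after the start on the strand of the gene, and have each CG dinucleotide, the site of DNA methylation, in capitals. ARMCX5 lies at chrX:102599265-102599564 (+), MAP10 at chr1:232805166-232805465 (+), SPIN3 at chrX:56995492-56995791 (-), TRIM58 at chr1:247856937-247857236 (+) and HDHD3 at chr9:113376937-113377236 (-).
ARMCX5: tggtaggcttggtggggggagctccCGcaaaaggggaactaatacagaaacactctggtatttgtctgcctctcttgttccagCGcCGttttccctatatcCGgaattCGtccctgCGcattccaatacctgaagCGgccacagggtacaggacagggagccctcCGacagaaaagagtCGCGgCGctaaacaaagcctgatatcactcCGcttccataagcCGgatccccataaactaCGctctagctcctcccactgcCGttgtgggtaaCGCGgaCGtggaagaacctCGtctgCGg
MAP10: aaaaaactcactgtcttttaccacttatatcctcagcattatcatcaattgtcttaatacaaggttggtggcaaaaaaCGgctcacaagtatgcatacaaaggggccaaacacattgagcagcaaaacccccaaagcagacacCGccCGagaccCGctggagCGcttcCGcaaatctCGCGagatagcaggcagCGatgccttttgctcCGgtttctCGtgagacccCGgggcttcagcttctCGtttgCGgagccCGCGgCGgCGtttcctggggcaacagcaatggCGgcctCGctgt
SPIN3: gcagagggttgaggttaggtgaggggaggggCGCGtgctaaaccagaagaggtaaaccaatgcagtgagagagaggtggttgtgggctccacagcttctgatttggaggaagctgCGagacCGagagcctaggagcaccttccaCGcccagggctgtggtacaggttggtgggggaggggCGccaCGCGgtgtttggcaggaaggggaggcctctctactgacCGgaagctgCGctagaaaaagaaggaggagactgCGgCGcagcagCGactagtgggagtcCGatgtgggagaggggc
TRIM58: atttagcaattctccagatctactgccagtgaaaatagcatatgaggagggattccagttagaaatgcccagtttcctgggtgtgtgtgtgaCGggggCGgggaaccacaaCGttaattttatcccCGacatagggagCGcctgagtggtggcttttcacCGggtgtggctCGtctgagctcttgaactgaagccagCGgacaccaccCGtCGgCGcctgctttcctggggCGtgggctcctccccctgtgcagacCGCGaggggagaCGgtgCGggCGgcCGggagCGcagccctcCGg
HDHD3: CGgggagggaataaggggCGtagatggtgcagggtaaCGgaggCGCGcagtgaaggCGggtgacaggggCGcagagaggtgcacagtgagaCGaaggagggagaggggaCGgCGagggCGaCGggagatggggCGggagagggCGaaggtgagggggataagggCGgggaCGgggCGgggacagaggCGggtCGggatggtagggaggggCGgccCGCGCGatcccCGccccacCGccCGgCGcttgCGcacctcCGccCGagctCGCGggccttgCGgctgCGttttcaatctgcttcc
The CG motif, searched as the letters CG, which read the same on the other strand, occurs 20 times in the ARMCX5, MAP10 and TRIM58 windows, a number that 41.2% of the 35116 promoters of the table reach. It occurs 14 times in the SPIN3 window, the median of all promoters, and 34 times in the HDHD3 window, reached by 15.6% of promoters. Methylation was not measured. Of the 20 genes named as furthest from both control and line 2, 14 matched an entry of that table (7 falls and 7 rises).

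ARMCX5 had 0 counts in both line 1 libraries, against 6.04 and 6.79 RPKM in line 2, 6.99 RPKM in the ARID1A+/- library, and 4.54 and 5.56 RPKM in control. With 3 counts over both line 1 libraries as the floor, it was at least 461.4-fold lower than in line 2 and at least 366.8-fold lower than in control. Such floors and the intervals below are 95% exact binomial limits or count floors that cover counting error only. MAP10 also had 0 counts in line 1, against 1.46 and 1.59 RPKM in line 2, 1.40 RPKM in the ARID1A+/- library, and 1.42 and 1.51 RPKM in control, and was at least 196.8-fold lower than in line 2 and at least 194.9-fold lower than in control. SPIN3 had 1 count over both line 1 libraries, against 6.14 and 6.26 RPKM in line 2, 3.80 RPKM in the ARID1A+/- library, and 2.48 and 2.09 RPKM in control. The control level of SPIN3 was 982.6 times that of line 1 (interval 176 to 38900), and that of line 2 was 2526 times (453 to 99800). All other lines expressed these 3 genes above 1 RPKM, and line 1 was the exception.

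PTPRZ1 had 0 counts in line 1, against 0.367 and 0.581 RPKM in line 2, 3.32 RPKM in the ARID1A+/- library, and 2.16 and 2.87 RPKM in control, so line 2 was low as well. It was at least 88.66-fold lower in line 1 than in line 2 and at least 483.9-fold lower than in control. DNER had 0 counts in line 1, against 0.826 and 0.896 RPKM in line 2, 0.0522 RPKM in the ARID1A+/- library, and 2.00 and 2.35 RPKM in control, at least 70.86-fold lower than in line 2 and 181.6-fold lower than in control. The ARID1A+/- library was thus low in DNER too, unlike in PTPRZ1. NPNT (nephronectin, a matrix ligand of integrins) had 0 counts in line 1, against 0.327 and 0.256 RPKM in line 2, 0.333 RPKM in the ARID1A+/- library, and 1.53 and 1.64 RPKM in control, at least 33.55-fold lower than in line 2 and 182.7-fold lower than in control. NETO1 had 1 count in line 1, with a control level 723.2 times as high (129 to 28600) and a line 2 level 371.7 times as high (66.3 to 14700). DTNA (dystrobrevin alpha, of the dystrophin complex) had 4 counts, PLA2G3 (a secreted phospholipase) 9 and RASSF8 (a Ras-association protein) 7 in line 1. Their control levels were 340.3 times (133 to 1250), 131.2 times (68.8 to 288) and 76.44 times (36.8 to 191) those of line 1. Line 2 stood at 215.1 times (83.7 to 791), 138.4 times (72.7 to 303) and 77.17 times (37.2 to 193) line 1. RASSF8 and PLA2G3 were therefore about as high in line 2 as in control. In each of these 10 genes, line 1 did not overlap with line 2 or control. The genes were chosen as past the threshold against both, so this follows largely from the choice. With limma on log2(RPKM + 1) the differences from line 2 of PTPRZ1 (adjusted p 0.0729) and NPNT (0.168) missed the threshold.

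The genes furthest above both control and line 2 were mostly at or near 0 outside line 1. TRIM58, an E3 ubiquitin ligase of the tripartite motif family, was at 3.04 and 3.55 RPKM in line 1, had 0 counts in line 2 and in the ARID1A+/- library, and was at 0.064 and 0.0254 RPKM in control. Its log2 difference from control was 6.09 ± 0.405 (edgeR adjusted p 0.0011), and it was at least 499.5-fold higher than in line 2. HDHD3, a hydrolase domain protein, was at 2.21 and 2.35 RPKM in line 1, had 0 counts in line 2 and in the ARID1A+/- library, and was at 0.153 and 0.021 RPKM in control, a log2 difference of 4.56 ± 0.579 from control and at least 105.2-fold over line 2. NUDT16, an enzyme that hydrolyses inosine nucleotides and RNA caps, was at 2.80 and 2.62 RPKM in line 1, 0.0181 and 0.0102 RPKM in line 2, 0 RPKM in the ARID1A+/- library, and 0.145 and 0.0121 RPKM in control. It was 5.15 ± 0.583 above control on the log2 scale and 188.1 times line 2 (91 to 469). These 3 genes showed on/off differences that line 1 did not share with any other line.

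FAM71E1, an uncharacterised protein, was at 3.27 and 2.25 RPKM in line 1, 0.128 and 0.0258 RPKM in line 2, 0 RPKM in the ARID1A+/- library, and 0.394 and 0.0306 RPKM in control, 3.76 ± 0.558 above control (log2; 5.94 without the control SMARTer library) and 33.72 times line 2 (16.9 to 78.9). CHRM1, the M1 muscarinic acetylcholine receptor, was at 1.69 and 0.767 RPKM in line 1, 0.0174 and 0.0368 RPKM in line 2, 0.0107 RPKM in the ARID1A+/- library, and 0.154 and 0.029 RPKM in control, 3.71 ± 0.508 above control (log2) and 52 times line 2 (22 to 161). GRIP1, a scaffold of glutamate receptors, was at 8.42 and 15.4 RPKM in line 1, 0.563 and 0.390 RPKM in line 2, 0.490 RPKM in the ARID1A+/- library, and 1.15 and 1.2 RPKM in control. GRIP1 was expressed in all lines, and in line 1 it was 3.31 ± 0.30 above control and 4.61 ± 0.325 above line 2 (log2). UBTFL1, a gene related to the ribosomal transcription factor UBTF, was at 3.33 and 1.54 RPKM in line 1, 0.436 and 0.146 RPKM in line 2, 0.154 RPKM in the ARID1A+/- library, and 0.0194 and 0.104 RPKM in control. It was 51.11 times control (19.7 to 189) and 3.09 ± 0.521 above line 2 (log2). SOWAHD, an ankyrin repeat protein, was at 9.80 RPKM in the SMARTer library of line 1 but at 0.138 RPKM in its KAPA library, against 0.0772 and 0.0653 RPKM in line 2, 0.190 RPKM in the ARID1A+/- library, and 0.187 and 0.103 RPKM in control. The difference of SOWAHD from control, 4.70 ± 1.19 (log2, edgeR adjusted p 0.0483), rested on that 1 library: it was 0.22 without the line 1 SMARTer library, 1.14 without the control SMARTer library and 5.49 without the control KAPA library, none of which passed. SOWAHD did not pass with DESeq2 (adjusted p 0.0847) or limma on log2(RPKM + 1) (0.218) either. Its ratio to line 2 was 79.36 (40 to 185), and the log2 difference from line 2 was 1.29 without the line 1 SMARTer library and 1.95 without the line 2 SMARTer library, neither of which passed. CHRM1 (4.79) and UBTFL1 (3.76) no longer passed against control without the control SMARTer library, and UBTFL1 did not pass against line 2 without the line 2 SMARTer (3.58) or KAPA library (2.84).

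**Figure D2:**
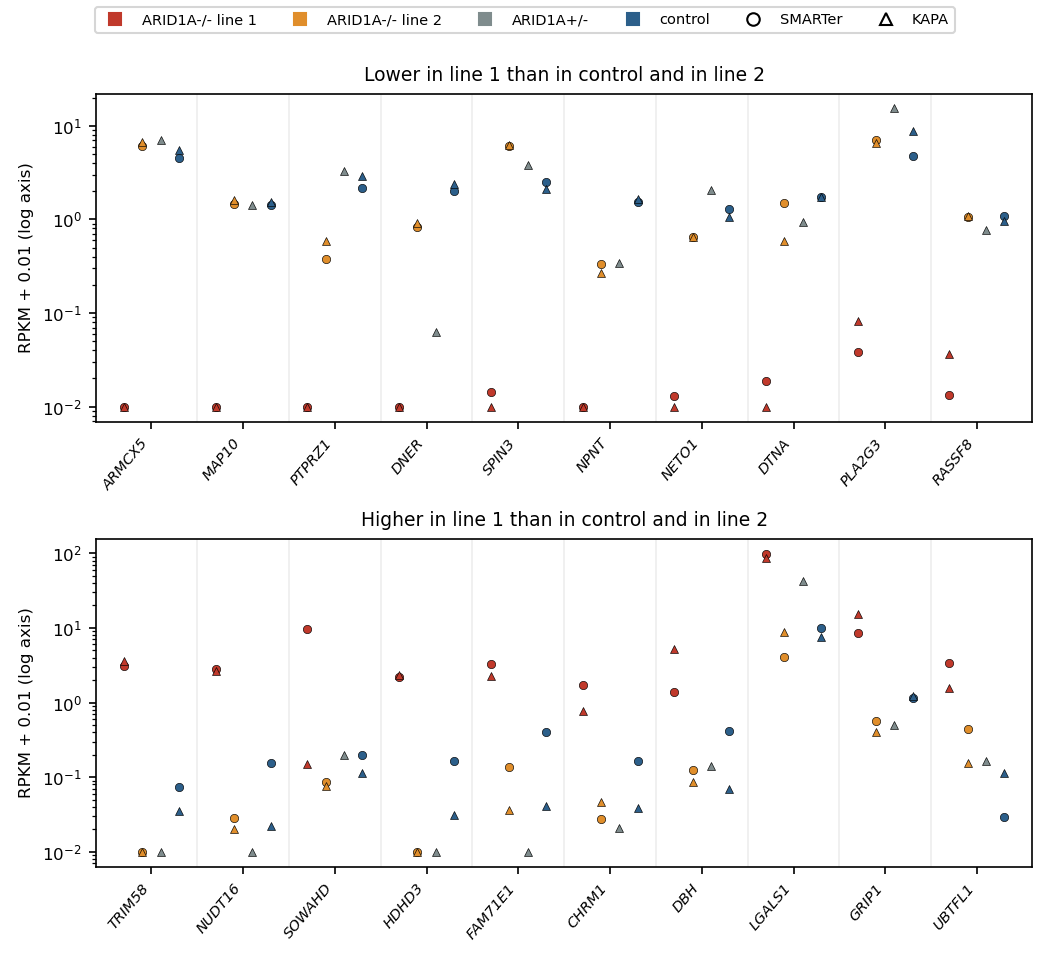
RPKM per library, on a log axis, of the genes furthest from both control and line 2, with falls and rises of line 1 in separate panels (circles SMARTer, triangles KAPA). In ARMCX5 and MAP10 both line 1 points sit at 0, and in TRIM58 and HDHD3 the line 1 points lie above 2 RPKM where all others lie below 0.2 RPKM.

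Many of the largest changes against control were not particular to line 1. OCIAD2, LPL (lipoprotein lipase), MAGEA4 (a cancer-testis antigen) and HBE1 (embryonic globin) had 0 counts in all 4 ARID1A-/- libraries. OCIAD2 was at 58.4 RPKM in the ARID1A+/- library and at 28.0 and 30.8 RPKM in control, and was at least 544.1-fold lower in line 1 than in control. LPL was at 1.84 and 6.33 RPKM, MAGEA4 at 3.70 and 8.70 RPKM and HBE1 at 13.6 and 4.15 RPKM in control, and line 1 was at least 317.5-fold, 276.4-fold and 240-fold lower. In the ARID1A+/- library LPL and MAGEA4 were at 0 RPKM and HBE1 at 0.0317 RPKM, so that line was low in them too, unlike in OCIAD2. With DESeq2 the adjusted p of these 4 genes missed the threshold (0.063 for OCIAD2, 0.0872 for LPL, 0.0941 for MAGEA4 and 0.118 for HBE1). NEUROD1, a neurogenic transcription factor, was at 0.00805 and 0.0627 RPKM in line 1, 0 and 0.0115 RPKM in line 2, 34.5 RPKM in the ARID1A+/- library, and 53.2 and 24.1 RPKM in control, a control level 1350 times that of line 1 (655 to 3360). Among the rises, ADCYAP1, the neuropeptide PACAP, was at 13.1 and 1.58 RPKM in line 1, 22.3 and 17.3 RPKM in line 2, 16.5 RPKM in the ARID1A+/- library, and 0.136 and 0.0242 RPKM in control. ADCYAP1 was thus high in every ARID1A mutant, and its difference in line 1 of 6.21 ± 0.859 (log2) was 6.86, and no longer past the threshold, without the control SMARTer library. LIX1, of limb expression, was at 26.5 and 17.1 RPKM in line 1, 3.53 and 9.17 RPKM in line 2, 1.90 RPKM in the ARID1A+/- library, and 0.422 and 0.505 RPKM in control, 5.61 ± 0.543 above control and 1.92 ± 0.453 above line 2 (log2). The LIX1 difference from line 2 no longer passed without either control library (1.93 each) or without the line 2 SMARTer library (1.08), and was 1.07 without the line 1 SMARTer library.

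Adrenergic transcription factors moved in both directions in line 1. Of 25 transcription factors, 5 rose (20%) and 6 fell (24%), against 4.76% and 8.42% of all genes (median log2 difference 0.0159). Of those that rose, 4 were also higher than in line 2. Of all genes, 1.57% were higher in both comparisons. EYA1, a phosphatase and transcriptional co-activator, was at 9.27 and 12.5 RPKM in line 1, 1.26 and 1.70 RPKM in line 2, 2.74 RPKM in the ARID1A+/- library, and 2.40 and 3.87 RPKM in control. It rose by 1.83 ± 0.152 (log2) over control and was 2.92 above line 2. TFAP2B, a factor of sympathetic development, was at 4.04 and 6.46 RPKM in line 1, 1.28 and 1.09 RPKM in line 2, 0.703 RPKM in the ARID1A+/- library, and 1.24 and 1.13 RPKM in control, a rise of 2.12 ± 0.248 (log2). HAND1, a paralog of HAND2, was at 221 and 173 RPKM in line 1, 75.5 and 34.3 RPKM in line 2, 74.9 RPKM in the ARID1A+/- library, and 126 and 56.7 RPKM in control. HAND1 rose by 1.22 ± 0.199 (log2) and was 1.99 above line 2. No line 1 library of EYA1, TFAP2B or HAND1 overlapped with another line. HAND1 no longer passed against control without the control SMARTer (1.41) or KAPA library (1.01), and the list then held 2 rises and 1 fall or 2 rises and 2 falls. Without the line 1 SMARTer library it held 8 rises and 5 falls, and without the line 1 KAPA library 6 rises and 9 falls.

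Of 10 measured genes of catecholamine synthesis and transport, 5 rose, 1 fell and 4 did not pass (50% and 10% rose and fell, against 4.76% and 8.42% of all genes), with a median of 0.922. SLC6A2, the noradrenaline transporter, was at 23.2 and 39.7 RPKM in line 1, 17.1 and 17.0 RPKM in line 2, 4.97 RPKM in the ARID1A+/- library, and 4.05 and 3.66 RPKM in control, a rise of 2.99 ± 0.226 (log2). DDC, which makes dopamine from L-DOPA, was at 47.2 and 38.4 RPKM in line 1, 18.5 and 19.1 RPKM in line 2, 16.8 RPKM in the ARID1A+/- library, and 17.9 and 11.9 RPKM in control. It rose by 1.54 ± 0.181 over control and was 1.2 above line 2 (log2). DBH, which makes noradrenaline from dopamine, was at 1.38 and 5.17 RPKM in line 1, 0.116 and 0.0752 RPKM in line 2, 0.132 RPKM in the ARID1A+/- library, and 0.407 and 0.0593 RPKM in control. Line 1 was above all other libraries in DBH, but its kits differed: the rise of 3.54 ± 0.896 (log2, edgeR adjusted p 0.0481) was 6.10 without the control SMARTer library, 5.61 without the line 1 SMARTer library and 1.99 without the line 1 KAPA library. It was 2.15 without the control KAPA library and 3.46 without the line 2 KAPA library, where it did not pass. The DBH rise also missed the threshold with DESeq2 size factors in edgeR (adjusted p 0.053) and with limma on log2(RPKM + 1) (0.0521). Against line 2 the DBH difference was 4.99 ± 0.973, 3.27 without the line 1 KAPA library, and no longer past the threshold without the line 2 SMARTer (5.54) or KAPA library (4.54). MAOA, which degrades monoamines, was at 8.04 and 8.41 RPKM in line 1, 13.7 and 21.1 RPKM in line 2, 1.25 RPKM in the ARID1A+/- library, and 2.74 and 3.21 RPKM in control, so that line 1 stood between line 2 and control. Its rise was 1.48 ± 0.181 (log2), and line 1 was 1.02 below line 2. GCH1, which makes the cofactor of tyrosine hydroxylase, was at 1.22 and 1.23 RPKM in line 1, 1.53 and 1.07 RPKM in line 2, 8.43 RPKM in the ARID1A+/- library, and 4.96 and 4.47 RPKM in control, and fell by 1.93 ± 0.222 (log2) in line 1. Tyrosine hydroxylase itself was below the limit for testing. Once the control SMARTer library was left out, MAOA (1.53) and GCH1 (-2.0) no longer passed and the list held 3 rises and 0 falls, and without the control KAPA library 3 rises and 1 fall. Against line 2, the SLC6A2 difference of 0.89 no longer passed without the control SMARTer (0.87), line 2 SMARTer (1.03), line 1 KAPA (0.48) or line 2 KAPA library (0.76) or with limma on log2(RPKM + 1) (0.80), nor MAOA without the line 2 KAPA library (-0.73).

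Secretory and neuronal genes also moved in both directions. Of 13 genes for granule proteins and neuropeptides, 3 rose and 3 fell (23.1% each, median 0.174). Of 30 genes for neuronal cytoskeleton and synapse, 3 rose (10%) and 1 fell (3.33%, median 0.0403). Of all genes, 4.76% rose and 8.42% fell. CHGA, chromogranin A of secretory granules, was at 239 and 239 RPKM in line 1, 153 and 195 RPKM in line 2, 137 RPKM in the ARID1A+/- library, and 115 and 79.8 RPKM in control, a rise of 1.30 ± 0.217 (log2). NMU, neuromedin U, had 5 counts over both line 1 libraries, against 0.542 and 1.61 RPKM in line 2, 0.0371 RPKM in the ARID1A+/- library, and 6.21 and 11.4 RPKM in control. The control level of NMU was 97.08 times that of line 1 (41.3 to 300) and that of line 2 was 11.5 times (4.65 to 36.8), a difference that missed the threshold with limma on log2(RPKM + 1) (adjusted p 0.0518). NEFH, the heavy neurofilament, was at 68.7 and 78.6 RPKM in line 1, 26.3 and 40.5 RPKM in line 2, 48.7 RPKM in the ARID1A+/- library, and 32.8 and 37.7 RPKM in control, and rose by 1.07 ± 0.158 (log2). GAP43, a growth cone protein, was at 104 and 71.8 RPKM in line 1, 32.8 and 35.5 RPKM in line 2, 83.7 RPKM in the ARID1A+/- library, and 35.5 and 45.0 RPKM in control, and rose by 1.14 ± 0.22 (log2). Both NEFH (1.2) and GAP43 (1.40) were also higher than in line 2 on the log2 scale. DPYSL3, another growth cone protein, was at 10.1 and 13.2 RPKM in line 1, 12.2 and 12.4 RPKM in line 2, 64.2 RPKM in the ARID1A+/- library, and 29.4 and 34.4 RPKM in control, and fell by 1.46 ± 0.12 (log2). Without the control SMARTer library NEFH (1.16) and GAP43 (0.84) no longer passed, and without the control KAPA library CHGA (0.97) and NEFH (0.96) did not. GAP43 was at 0.70 against control without the line 1 SMARTer library, and against line 2 it missed the threshold without the line 2 SMARTer library (1.27). The secretory list held 1 rise and 1 fall without the control SMARTer library and 2 rises and 1 fall without the control KAPA library, and the neuronal list 0 rises and 2 falls without the control SMARTer library 4 rises and 3 falls without the line 1 SMARTer library, and 4 rises and 2 falls without the line 1 KAPA library.

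Of 21 measured mesenchymal effector genes, 7 rose (33.3%), 0 fell and 14 did not pass, with a median of 0.758. Of all genes, 4.76% rose and 8.42% fell. Of the 21, 6 were higher than in line 2 while 1 was lower, where 5.79% of all genes were higher and 6.83% lower. FN1 (fibronectin) was at 41.5 and 68.9 RPKM in line 1, 28.2 and 59.4 RPKM in line 2, 8.60 RPKM in the ARID1A+/- library, and 3.01 and 5.27 RPKM in control. It rose by 3.76 ± 0.162 (log2), and line 2 overlapped with line 1. LGALS1 (galectin 1, a secreted lectin) was at 99.3 and 86.0 RPKM in line 1, 4.05 and 8.87 RPKM in line 2, 42.9 RPKM in the ARID1A+/- library, and 10.1 and 7.48 RPKM in control. LGALS1 rose by 3.39 ± 0.378 (edgeR adjusted p 0.0032) and was 3.91 ± 0.393 above line 2 (log2), so that line 1 and the ARID1A+/- library were high and line 2 was not. S100A11, a calcium-binding protein, was at 5.25 and 23.8 RPKM in line 1, 0.0413 and 0.291 RPKM in line 2, 0 RPKM in the ARID1A+/- library, and 1.93 and 10.8 RPKM in control. Its rise was 1.28 (log2), and it was 93.97 times line 2 (42.9 to 257). With limma on log2(RPKM + 1) the S100A11 rise did not pass (adjusted p 0.15). MMP2, a matrix protease, was at 47.4 and 57.6 RPKM in line 1, 15.5 and 13.3 RPKM in line 2, 74.2 RPKM in the ARID1A+/- library, and 23.1 and 26.4 RPKM in control, a rise of 1.09 ± 0.137 with line 2 1.90 below line 1 (log2). IGFBP3, an insulin-like growth factor carrier, was at 16.7 and 17.2 RPKM in line 1, 62.4 and 55.4 RPKM in line 2, 23.6 RPKM in the ARID1A+/- library, and 5.13 and 1.27 RPKM in control, 2.52 ± 0.449 above control and 1.75 below line 2 (log2; adjusted p against line 2 0.0909 with DESeq2). Of 19 mesenchymal transcription factors, 3 rose and 3 fell (15.8% each, median -0.0136). The smallest p of this list was that of TBX18, which fell by 1.86 ± 0.229 (log2), and SIX4 fell by 2.09 ± 0.303. ZFP36L1, an RNA-binding protein on that list, was at 5.54 and 3.24 RPKM in line 1, 4.09 and 6.97 RPKM in line 2, 1.16 RPKM in the ARID1A+/- library, and 0.477 and 0.281 RPKM in control, a rise of 3.50 ± 0.448 (log2). MMP2 (1.0) and S100A11 (1.13) no longer passed without the control SMARTer library, nor did S100A11 without the line 1 SMARTer (1.10) or control KAPA library (1.43), nor IGFBP3 against line 2 without the line 2 KAPA library (-1.32). The effector list held 4 rises without either control library, 11 rises and 1 fall without the line 2 SMARTer library, and 10 rises and 1 fall without the line 1 KAPA library, and 3 rises with no term for the kit. The transcription factor list held 1 rise and 0 falls without the control SMARTer library, 1 and 1 without the control KAPA library, and 5 and 5 without the line 1 KAPA library.

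Matrix genes moved in both directions, and COL1A1, a chain of collagen I, and COL3A1, of collagen III, were higher in line 1 than in control and in line 2. COL1A2, the other chain of collagen I, had at most 5 counts in any library of line 1, line 2 or control. Of 23 matrix glycoproteins, proteoglycans and cross-linkers, 6 rose (26.1%) and 7 fell (30.4%), against 4.76% and 8.42% of all genes (median -0.137). In this list 10 were higher and 3 lower than in line 2, where 5.79% of all genes were higher and 6.83% lower. Of 15 collagens, 2 rose and 2 fell (13.3% each, median 0.000122), and 4 were higher than in line 2. COL1A1 was at 156 and 171 RPKM in line 1, 30.3 and 19.9 RPKM in line 2, 17.1 RPKM in the ARID1A+/- library, and 60.2 and 62.6 RPKM in control, and rose by 1.42 ± 0.182 (log2) in line 1. COL3A1 was at 6.24 and 7.80 RPKM in line 1, 1.53 and 1.27 RPKM in line 2, 6.48 RPKM in the ARID1A+/- library, and 1.52 and 1.60 RPKM in control, a rise of 2.17 ± 0.183 (log2). LUM, a collagen-binding proteoglycan, was at 17.1 and 17.3 RPKM in line 1, 3.25 and 3.42 RPKM in line 2, 13.7 RPKM in the ARID1A+/- library, and 2.04 and 1.72 RPKM in control, a rise of 3.20 ± 0.186 (log2). Line 1 was also above line 2 in COL1A1 by 2.76, in COL3A1 by 2.35 and in LUM by 2.40 (log2). DCN (decorin) was at 4.44 and 2.21 RPKM in line 1, 4.02 and 3.74 RPKM in line 2, 1.75 RPKM in the ARID1A+/- library, and 0.301 and 0.0326 RPKM in control, and HAS2, a hyaluronan synthase, at 4.82 and 13.2 RPKM in line 1, 4.56 and 7.57 RPKM in line 2, 0.231 RPKM in the ARID1A+/- library, and 0.203 and 0.575 RPKM in control. DCN rose by 4.23 ± 0.545 and HAS2 by 4.54 ± 0.255 (log2), with line 2 in the same range. Falls included LOX, which cross-links collagen, at 0.273 and 0.469 RPKM in line 1, 0.430 and 0.479 RPKM in line 2, 12.2 RPKM in the ARID1A+/- library, and 17.9 and 17.3 RPKM in control. LOX fell by 5.60 ± 0.234 (log2). LAMA5, a laminin chain, was at 0.554 and 0.385 RPKM in line 1, 0.752 and 0.415 RPKM in line 2, 3.52 RPKM in the ARID1A+/- library, and 5.32 and 3.02 RPKM in control, and fell by 3.12 ± 0.168 (log2). COL16A1 was at 0.303 and 0.215 RPKM in line 1, 0.0698 and 0.0116 RPKM in line 2, 6.15 RPKM in the ARID1A+/- library, and 15.2 and 5.12 RPKM in control, and fell by 5.16 ± 0.315 (log2). Its difference from line 2 was 2.75 with edgeR but 0.27 with limma on log2(RPKM + 1) (adjusted p 0.661), 1.37 on log2(RPKM + 0.1) (0.0793) and 0.16 after quantile normalization (0.826), and it did not pass in any of these. Integrins and focal adhesion genes gave 3 rises (17.6%) and 1 fall (5.88%) among 17 measured (median 0.351). COL1A1 no longer passed without the control SMARTer library (1.27). The matrix list held 4 rises and 4 falls without that library, 3 rises and 6 falls without the control KAPA library, and 9 rises and 8 falls without the line 1 KAPA library. The collagen list held 2 rises and 1 fall without the control SMARTer library, 3 rises and 2 falls without the line 1 SMARTer or the line 2 SMARTer library, and 2 rises and 3 falls without the line 1 KAPA library. The integrin list held 0 rises and 0 falls without either control library and 5 rises without the line 1 SMARTer, line 2 SMARTer or line 1 KAPA library.

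Several fibroblast markers are themselves among these matrix genes, so their rise is not a separate result. The summed RPKM of 9 fibroblast markers was 224 and 246 in line 1, 65.3 and 61.9 in line 2, 111 in the ARID1A+/- library, and 100 and 101 in control, and 4 of 7 measured rose and 0 fell. The 4 rises are 57.1% of those measured, against 4.76% of all genes. Of the defining fibroblast genes, FAP had 0 counts in all libraries, and COL1A1, COL3A1, LUM and DCN, on both lists, carried the rises. COL1A1 alone gave 156 and 171 RPKM of the line 1 sums. Of the 7 measured, 6 were above 0 against control and 1 below. PDGFRB was at 2.37 and 2.73 RPKM in line 1 and 4.07 and 3.58 RPKM in control. In bulk RNA fewer cells of a type and less RNA per cell cannot be told apart, and the part of other cells in the matrix result was not tested. The summed RPKM of 16 neural crest and Schwann cell genes was 15.6 and 18.7 in line 1, 7.0 and 4.55 in line 2, 33.8 in the ARID1A+/- library, and 55.5 and 37.6 in control. NGFR made up most of the control sums, at 40.7 and 29.8 RPKM, against 2.05 and 2.72 RPKM in line 1. Among 4 measured there was 1 fall, NGFR, and 1 rise, SOX9, at 3.59 and 10.6 RPKM in line 1 and 2.02 and 1.98 RPKM in control. Endothelial and erythroid markers had 0 members above the limit for testing, and of the epithelial and immune markers 2 and 1 were measured and did not pass. After removal of the control SMARTer library, 3 fibroblast markers rose and the neural crest list held 0 rises and 1 fall. The neural crest list also held 0 rises and 1 fall without the control KAPA library and 1 rise and 2 falls without the line 1 KAPA library, where the fibroblast list held 5 rises and 1 fall.

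HOX genes, which give cells their position along the body axis, moved in both directions in line 1 against control. Of 19 measured, 8 rose, 3 fell and 8 did not pass (median 0.69). The shares, 42.1% and 15.8%, compare with 4.76% and 8.42% of all genes. Against line 2, 10 were higher and 0 lower (median 1.08), where 5.79% of all genes were higher and 6.83% lower. The 8 that rose, HOXA5, HOXA6, HOXA7, HOXC6, HOXD4, HOXD10, HOXD11 and HOXD13, were all also higher than in line 2. Of all genes, 1.57% were higher in both comparisons. HOXA7 was at 10.7 and 11 RPKM in line 1, 5.76 and 5.22 RPKM in line 2, 5.12 RPKM in the ARID1A+/- library, and 4.87 and 3.88 RPKM in control, a rise of 1.32 ± 0.177 (log2). HOXD13 was at 13.1 and 21.2 RPKM in line 1, 2.85 and 3.53 RPKM in line 2, 6.02 RPKM in the ARID1A+/- library, and 5.98 and 8.65 RPKM in control, a rise of 1.22 ± 0.154 (log2). HOXD10 was at 14.1 and 11.6 RPKM in line 1, 2.55 and 1.82 RPKM in line 2, 5.50 RPKM in the ARID1A+/- library, and 6.44 and 3.29 RPKM in control, a rise of 1.46 ± 0.219 (log2). In these 3 genes line 1 was above every other library, and line 2 was below control in both HOXD genes. HOXA5 rose by 2.5, HOXA6 by 2.80, HOXC6 by 1.51, HOXD4 by 1.51 and HOXD11 by 1.59 (log2). Within the HOXA cluster the direction turned between HOXA7 and HOXA9. HOXA9 was at 0.129 and 0.137 RPKM in line 1, had 0 counts in line 2, and was at 2.31 RPKM in the ARID1A+/- library and 1.39 and 0.776 RPKM in control, a fall of 2.99 ± 0.434 (log2). HOXA10 was at 0.167 and 0.482 RPKM in line 1, 0.0462 and 0.0326 RPKM in line 2, 9.29 RPKM in the ARID1A+/- library, and 3.47 and 3.58 RPKM in control, a fall of 3.55 ± 0.415 (log2). HOXA11 was at 0.200 and 0.425 RPKM in line 1, 0.203 and 0.156 RPKM in line 2, 9.66 RPKM in the ARID1A+/- library, and 3.91 and 4.77 RPKM in control, a fall of 3.84 ± 0.352 (log2). HOXA9, at least 6.492-fold, and HOXA10, 7.682 times (3.83 to 17.5), were nonetheless higher in line 1 than in line 2 with edgeR, but not with limma on log2(RPKM + 1), where the adjusted p was 0.569 for HOXA9 and 0.241 for HOXA10. With DESeq2 the rise of HOXA6 missed the threshold (adjusted p 0.0526), and with no term for the kit the list held 1 rise and 2 falls.

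The HOX calls depended on single libraries. Once the control SMARTer library was left out, the list held 2 rises and 2 falls, and HOXA6 (3.45), HOXA7 (1.45), HOXA9 (-2.51), HOXC6 (1.43), HOXD4 (1.57), HOXD11 (1.87) and HOXD13 (1.19) no longer passed. Without the control KAPA library it held 0 rises and 2 falls, and HOXA5 (1.53), HOXA6 (2.34), HOXA7 (1.18), HOXA9 (-3.39), HOXC6 (1.57), HOXD4 (1.43), HOXD10 (1.18), HOXD11 (1.31) and HOXD13 (1.22) no longer passed. All kept their sign, and HOXA5 was 3.91 without the control SMARTer library. Without the line 1 KAPA library HOXA6 (2.01) no longer passed. Against line 2, HOXA5 (3.44), HOXA7 (1.00), HOXA9 (5.87), HOXA10 (3.49) and HOXD4 (1.72) did not pass without the line 2 SMARTer library, and HOXA5 (3.67), HOXA6 (2.96), HOXA7 (1.06), HOXA9 (6.66), HOXA10 (2.43), HOXC6 (0.83) and HOXD4 (1.44) did not without the line 2 KAPA library. Without the control SMARTer library HOXA9 (6.24) and HOXC6 (1.09) did not pass against line 2.

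**Figure D3:**
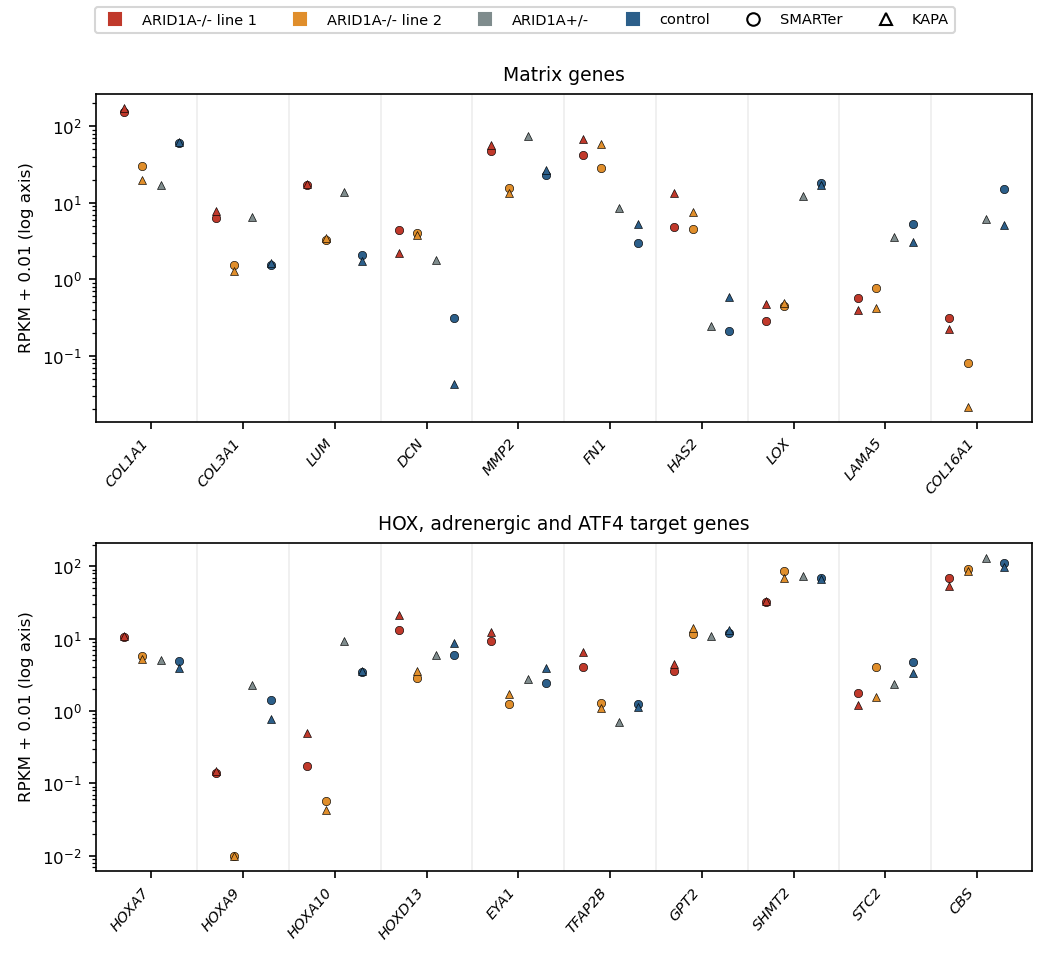
RPKM per library (RPKM + 0.01 on a log axis) of matrix genes, HOX genes, 2 adrenergic factors and genes of amino acid stress, with line 1, line 2, ARID1A+/- and control from left to right in each gene (circles SMARTer, triangles KAPA). Line 1 stands above the others in COL1A1, HOXA7, HOXD13, EYA1 and TFAP2B, and below them in GPT2 and SHMT2.

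Of 21 measured receptor kinases, which receive growth signals at the cell surface, 1 rose, 8 fell and 12 did not pass (median -0.575). The shares, 4.76% and 38.1%, compare with 4.76% and 8.42% of all genes. In this list 1 was higher and 5 lower than in line 2, where 5.79% of all genes were higher and 6.83% lower. NTRK3, the neurotrophin 3 receptor, had 1 count in line 1, against 0.0925 and 0.130 RPKM in line 2, 1.03 RPKM in the ARID1A+/- library, and 1.46 and 1.03 RPKM in control. The control level of NTRK3 was 560 times that of line 1 (100 to 22200), and that of line 2 45.18 times (7.7 to 1820). MET, the hepatocyte growth factor receptor, had 5 counts in line 1, against 0.669 and 0.215 RPKM in line 2, 0.0204 RPKM in the ARID1A+/- library, and 1.51 and 3.20 RPKM in control. The control level of MET was 230.7 times that of line 1 (98.5 to 712), and that of line 2 50.94 times (21.5 to 158). Neither difference from line 2 passed with limma, where the adjusted p was 0.607, 0.219 and 0.317 for NTRK3 and 0.32, 0.0715 and 0.27 for MET on log2(RPKM + 1), on log2(RPKM + 0.1) and after quantile normalization. FGFR1 was at 8.40 and 8.87 RPKM in line 1, 6.70 and 7.36 RPKM in line 2, 25.6 RPKM in the ARID1A+/- library, and 18.7 and 18.4 RPKM in control, a fall of 1.10 ± 0.118 (log2). FGFR3 was at 0.245 and 0.261 RPKM in line 1, 0.426 and 0.764 RPKM in line 2, 1.04 RPKM in the ARID1A+/- library, and 3.48 and 3.51 RPKM in control, a fall of 3.78 ± 0.316 (log2). FGFR1 and FGFR3 were low in both ARID1A-/- lines, and FGFR3 lies in a stretch of chromosome 4 described below. NGFR, the p75 neurotrophin receptor, was at 2.05 and 2.72 RPKM in line 1, 0.732 and 0.162 RPKM in line 2, 30.0 RPKM in the ARID1A+/- library, and 40.7 and 29.8 RPKM in control. NGFR fell by 3.84 ± 0.42 against control and was 2.49 ± 0.464 above line 2 (log2; 3.86 without the line 2 SMARTer library, and 2.55 and not past the threshold without the control SMARTer library). The receptor list held 0 rises and 4 falls without the control SMARTer library, 1 rise and 5 falls without the control KAPA library, and 2 rises and 10 falls without the line 1 SMARTer library.

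Genes of Notch, Wnt and TGF-beta signalling gave mixed counts. Of 19 Notch pathway genes 2 rose (10.5%) and 6 fell (31.6%, median -0.41). Of 18 Wnt genes 5 rose (27.8%) and 6 fell (33.3%, median -0.505). Of 24 genes of TGF-beta, activin and BMP signalling 0 rose and 3 fell (12.5%, median -0.0579). Of all genes, 4.76% rose and 8.42% fell. MFNG, a glycosyltransferase that modifies Notch, had 3 counts in line 1 and 0 in line 2, with 0.0425 RPKM in the ARID1A+/- library and 12.2 and 18.1 RPKM in control, a control level 750.2 times that of line 1 (256 to 3640). JAG2, a Notch ligand, was at 0.918 and 0.462 RPKM in line 1, 1.22 and 0.883 RPKM in line 2, 10.4 RPKM in the ARID1A+/- library, and 4.02 and 2.07 RPKM in control, and fell by 2.13 ± 0.234 (log2). HES1, a transcriptional target of Notch, was by contrast at 1.55 and 1.98 RPKM in line 1, 0.189 and 0.196 RPKM in line 2, 0.483 RPKM in the ARID1A+/- library, and 0.507 and 0.526 RPKM in control. HES1 rose by 1.76 over control and was 3.21 above line 2 (log2), so line 1 was the highest and line 2 the lowest. HES6 and HES4, also on the Notch list, went the other way, at -2.15 ± 0.17 and -1.82 ± 0.255 (log2) against control. HES6 was at 13.1 and 17.9 RPKM in line 1 and 72.3 and 65.7 RPKM in control, and was also lower than in line 2 (-0.746). TCF7L2, a transcription factor of the Wnt pathway, was at 4.53 and 3.02 RPKM in line 1, 1.57 and 1.74 RPKM in line 2, 0.882 RPKM in the ARID1A+/- library, and 0.977 and 0.965 RPKM in control, a rise of 1.96 ± 0.252 with 1.21 over line 2 (log2). NKD1, an inhibitor and target of Wnt signalling, was at 0.316 and 0.493 RPKM in line 1, 0.403 and 0.619 RPKM in line 2, 0.726 RPKM in the ARID1A+/- library, and 1.48 and 1.52 RPKM in control, and fell by 1.93 ± 0.253 (log2). INHBB, an activin subunit, had 0 counts in line 1, against 0.0153 and 0 RPKM in line 2, 1.83 RPKM in the ARID1A+/- library, and 3.05 and 2.36 RPKM in control, at least 220.5-fold lower than in control. INHBE, another activin subunit, was at 0.0496 and 0.155 RPKM in line 1, 2.55 and 0.696 RPKM in line 2, 4.17 RPKM in the ARID1A+/- library, and 5.17 and 2.47 RPKM in control, 5.18 ± 0.679 below control and 3.82 ± 0.688 below line 2 (log2). After removal of the control SMARTer library, JAG2 (-2.03), HES1 (1.84), TCF7L2 (1.83), NKD1 (-1.64) and INHBE (-5.07) no longer passed against control, and without the control KAPA library HES1 (1.67) did not. The Notch list then held 0 rises and 2 falls, or 0 rises and 3 falls, and the Wnt list 0 rises and 0 falls, or 1 rise and 2 falls. The Notch list held 4 rises and 7 falls without the line 1 SMARTer library, and 1 rise without the line 1 KAPA, line 2 SMARTer or line 2 KAPA library. The Wnt list held 4 rises and 4 falls without the line 1 SMARTer library and 4 rises and 9 falls without the line 1 KAPA library, and without the line 1 KAPA library the TGF-beta list held 2 rises and 7 falls. Against line 2, TCF7L2 no longer passed without the control SMARTer (1.21), line 1 SMARTer (0.83) or line 2 SMARTer library (0.96), and INHBE was -2.99 and not past the threshold without the line 2 SMARTer library and -2.43 without the line 1 SMARTer library. With limma on log2(RPKM + 1) the INHBE difference from line 2 also missed the threshold (adjusted p 0.059).

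Among genes that the transcription factor ATF4 switches on when amino acids are short, those that passed were lower in line 1 than in control and than in line 2. Of 25 measured, 0 rose, 9 fell (36%, against 8.42% of all genes) and 16 did not pass against control, with a median of -0.514 and 23 of 25 below 0. Against line 2, 0 were higher and 14 lower, with a median of -0.699, and 7 genes passed in both comparisons. Of all genes, 5.79% were higher and 6.83% lower than in line 2, and 3.08% were lower in both comparisons. GPT2, a mitochondrial alanine transaminase, was at 3.52 and 4.52 RPKM in line 1, 11.5 and 14.0 RPKM in line 2, 11 RPKM in the ARID1A+/- library, and 11.8 and 13.2 RPKM in control, 1.64 ± 0.13 below control and 1.64 below line 2 (log2). SHMT2, which makes glycine from serine in mitochondria, was at 31.9 and 32.8 RPKM in line 1, 87.0 and 69.9 RPKM in line 2, 73.1 RPKM in the ARID1A+/- library, and 68.0 and 67.9 RPKM in control, 1.06 ± 0.123 below control and 1.24 below line 2 (log2). In GPT2 and SHMT2 the other lines were within the same range and line 1 alone was low. GPT2 lies in the low stretch of chromosome 16 and SHMT2 in one of chromosome 12. Without the genes of all low runs of chromosomes 4, 12 and 16 in the fit, described below, the list held 0 rises and 7 falls. It held 5 falls with limma after quantile normalization and 2 with no term for the kit. TRIB3, a pseudokinase induced by ATF4, was at 2.08 and 1.11 RPKM in line 1, 8.64 and 2.48 RPKM in line 2, 2.35 RPKM in the ARID1A+/- library, and 7.40 and 2.17 RPKM in control, 1.41 below control (limma on log2(RPKM + 1), adjusted p 0.0503) and 1.58 below line 2 (log2). CBS, of cysteine synthesis, was at 67.9 and 53 RPKM in line 1, 92.5 and 86.2 RPKM in line 2, 132 RPKM in the ARID1A+/- library, and 111 and 99.0 RPKM in control, 0.80 ± 0.132 below control and 0.54 below line 2 (log2). STC2, a secreted glycoprotein, was at 1.78 and 1.19 RPKM in line 1, 4.06 and 1.54 RPKM in line 2, 2.32 RPKM in the ARID1A+/- library, and 4.72 and 3.34 RPKM in control, 1.45 ± 0.236 below control (log2). SESN2, counted among the p53 targets and also induced by ATF4, was at 1.86 and 1.09 RPKM in line 1, 10.9 and 3.92 RPKM in line 2, 2.60 RPKM in the ARID1A+/- library, and 5.27 and 3.29 RPKM in control, 1.55 ± 0.226 below control and 2.19 ± 0.228 below line 2 (log2). The kit moved with this list, whose median was -0.731 in the SMARTer pair and -0.26 in the KAPA pair, and the part of the kit in the result was not tested. Once the control SMARTer library was left out, the list held 2 falls, and TRIB3 (-1.21), CBS (-0.85) and STC2 (-1.70) no longer passed. Without the control KAPA library it held 3 falls, and TRIB3 (-1.60), CBS (-0.77), STC2 (-1.2) and SESN2 (-1.32) did not pass. It held 5 falls without the line 1 SMARTer library and 16 without the line 1 KAPA library. Against line 2, CBS missed the threshold without the control SMARTer (-0.54), control KAPA (-0.54), line 2 SMARTer (-0.63), line 1 KAPA (-0.39) or line 2 KAPA library (-0.42), and TRIB3 without the line 2 SMARTer library (-1.36).

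Of 43 cell cycle and DNA replication genes, 8 rose, 2 fell and 33 did not pass. The shares, 18.6% and 4.65%, compare with 4.76% and 8.42% of all genes. The list had a median of 0.754 in the SMARTer pair and 0.0869 in the KAPA pair. ASPM, of the mitotic spindle pole, was at 25.2 and 50.3 RPKM in line 1, 11.6 and 28.1 RPKM in line 2, 35.6 RPKM in the ARID1A+/- library, and 11 and 30.1 RPKM in control, a rise of 0.97 ± 0.149 (log2). MKI67, the proliferation marker Ki-67, was at 27.4 and 41.9 RPKM in line 1, 18.4 and 35.8 RPKM in line 2, 21.0 RPKM in the ARID1A+/- library, and 13.6 and 28.0 RPKM in control, a rise of 0.81 ± 0.153 (log2). Within each kit line 1 was highest in ASPM and MKI67, and in every line the KAPA library was above the SMARTer library. Without the control SMARTer library 0 of the 43 rose and 0 fell, and ASPM (0.80) and MKI67 (0.66) no longer passed. Without the control KAPA library 2 rose and MKI67 (0.93) did not pass. With no term for the kit, 0 rose and 0 fell as well, and DESeq2 gave 17 rises and 3 falls. The list held 2 rises without the line 1 SMARTer library, 4 rises and 1 fall without either line 2 library, and 28 rises and 1 fall without the line 1 KAPA library. Against line 2, ASPM missed the threshold without the line 2 SMARTer (0.98) or KAPA library (1.08).

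In cytosolic ribosomal protein genes and clustered protocadherins, the medians of line 1 and line 2 against control lay on the same side of 0. Of 73 cytosolic ribosomal protein genes 0 rose and 18 fell (24.7%, against 8.42% of all genes). Their median was -0.464 with all 73 below 0, and the median of line 2 against control was -0.548. RPS21 was at 129 and 188 RPKM in line 1, 138 and 176 RPKM in line 2, 269 RPKM in the ARID1A+/- library, and 271 and 334 RPKM in control, a fall of 0.94 ± 0.117 (log2). The number of falls depended on the test: 46 fell with DESeq2, 9 with limma on log2(RPKM + 1), 2 after quantile normalization, where the median was -0.254, and 0 with no term for the kit. Of 50 clustered protocadherins, adhesion proteins that give neurons an identity, 28 rose and 0 fell (median 0.714). The 56% that rose compare with 4.76% of all genes. The median of line 2 against control was 0.942. These genes share their last exons, so the counts of single members are uncertain. PCDHGB7 was at 17.5 and 13.1 RPKM in line 1, 16.4 and 13 RPKM in line 2, 13.4 RPKM in the ARID1A+/- library, and 7.91 and 5.82 RPKM in control, a rise of 1.16 ± 0.12 (log2). The protocadherin list held 2 rises without the control SMARTer library, 1 without the control KAPA library and 1 with no term for the kit. The ribosomal list held 0 falls and 1 fall without these, 5 without the line 1 SMARTer library, 6 without the line 2 SMARTer library, 3 without the line 2 KAPA library and 47 without the line 1 KAPA library, and RPS21 (-0.88) no longer passed without the control SMARTer library.

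Of 32 axon guidance genes 2 rose (6.25%) and 8 fell (25%, median 0.0263). Of 23 voltage-gated channels 4 rose (17.4%) and 5 fell (21.7%, median -0.184). Of all genes, 4.76% rose and 8.42% fell. SLIT1, a repellent for axons, was at 0.10 and 0.106 RPKM in line 1, 0.216 and 0.0956 RPKM in line 2, 0.897 RPKM in the ARID1A+/- library, and 2.06 and 1.89 RPKM in control, a fall of 4.25 ± 0.345 (log2). UNC5A, a netrin receptor, was at 4.46 and 2.65 RPKM in line 1, 4.41 and 2.36 RPKM in line 2, 7.94 RPKM in the ARID1A+/- library, and 13.7 and 7.95 RPKM in control, a fall of 1.60 ± 0.138 (log2). In SLIT1 and UNC5A the line 2 libraries overlapped with those of line 1. CACNA1H, a T-type calcium channel, was by contrast lower in line 1 than in every other library, at 1.58 and 0.877 RPKM in line 1, 8.23 and 5.59 RPKM in line 2, 5.79 RPKM in the ARID1A+/- library, and 9.01 and 6.87 RPKM in control. It was 2.72 ± 0.167 below control and 2.48 ± 0.165 below line 2 (log2). KCNQ3, a potassium channel subunit, was at 0.700 and 1.12 RPKM in line 1, 1.22 and 1.61 RPKM in line 2, 2.33 RPKM in the ARID1A+/- library, and 3.41 and 3.77 RPKM in control, a fall of 2.01 ± 0.179 (log2). Of 11 cancer-testis antigens, 1 rose and 6 fell (54.5%, median -2.95). PRAME was at 1.53 and 1.72 RPKM in line 1, 1.14 and 0.262 RPKM in line 2, 3.60 RPKM in the ARID1A+/- library, and 20 and 32.8 RPKM in control, and fell by 4.03 ± 0.537 (log2; -3.19 and not past the threshold without the control KAPA library). After removal of the control SMARTer library, the guidance list held 0 rises and 4 falls, the channels 0 rises and 2 falls and the antigens 0 rises and 4 falls. Without the control KAPA library they held 1 rise and 6 falls, 0 rises and 4 falls, and 1 rise and 4 falls. The guidance list held 5 rises and 10 falls without the line 1 SMARTer or either line 2 library and 5 rises and 9 falls without the line 1 KAPA library, where the channels held 4 rises and 8 falls and the antigens 3 rises and 6 falls.

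**Figure D4:**
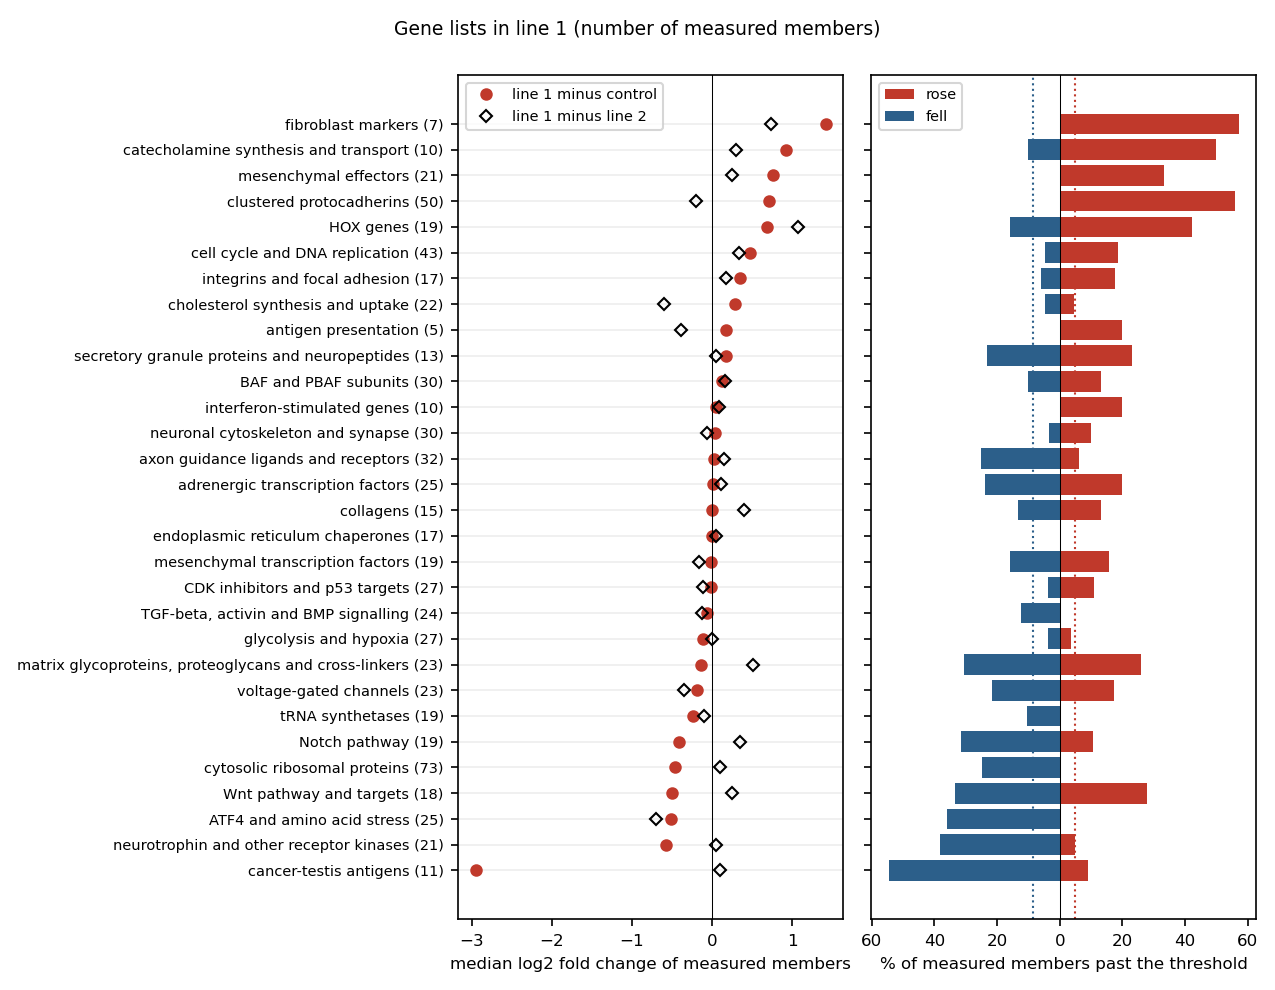
Gene lists with at least 5 measured members. On the left is the median log2 difference of line 1 from control (red dots) and from line 2 (open diamonds), and on the right the percent of measured members that rose (red) or fell (blue) against control, with dotted lines at the 4.76% and 8.42% of all genes. The ATF4 list lies below 0 and the HOX list above 0 in both comparisons, whereas the ribosomal and protocadherin lists lie near 0 against line 2.

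The remaining lists held few calls by number. Of all genes, 4.76% rose and 8.42% fell. Of 27 CDK inhibitors and p53 targets 3 rose (11.1%) and 1 fell (3.7%, median -0.0139). Of 19 tRNA synthetases 0 rose and 2 fell (10.5%, median -0.233). Of 17 chaperones of the endoplasmic reticulum 0 rose and 0 fell with edgeR, and 2 had an unadjusted p under 0.05. DESeq2 and limma also called 0 chaperones. The chaperone list held 2 rises and 3 falls without the line 1 KAPA library. Of 22 genes of cholesterol synthesis and uptake 1 rose and 1 fell (4.55% each). Their median was 0.994 in the SMARTer pair and -0.297 in the KAPA pair. Of 27 genes of glycolysis and hypoxia 1 rose and 1 fell (3.7% each). Of 10 interferon-stimulated genes 2 rose (20%) and 0 fell, and of 5 antigen presentation genes 1 rose (20%) and 0 fell. The 20% shares thus rest on 2 genes and 1 gene. Once the control SMARTer library was left out, 2 p53 targets fell and 0 genes of the other 6 lists passed. Without the line 1 KAPA library 10 cholesterol genes and 6 p53 targets rose, and 4 tRNA synthetases and 3 genes of glycolysis and hypoxia fell. The p53 list held 0 rises and 0 falls without the control KAPA library and 3 falls without the line 1 SMARTer or either line 2 library.

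A set of 82 genes passed against control and against line 2 with opposite signs, so line 1 lay between control and line 2. MAOA and IGFBP3 stood above control but below line 2, and NGFR, COL16A1, HOXA9 and HOXA10 below control but above line 2, with the values given above.

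Some falls of line 1 lay side by side on the chromosomes. To keep the choice of stretches apart from their reading, stretches were chosen in the SMARTer pair alone, as at least 10 genes in a row whose sliding median over 15 genes was at or below -0.5 on the log2 scale, and were then read in the KAPA pair. Gene order was taken from RefSeq, in which 11986 of the tested genes (81.5%) had a place. On chromosome 4, 61 genes in order between IDUA and FBXL5 had a median of -0.871 in the SMARTer pair and -1.0 in the KAPA pair of line 1 and control, with 60 of 61 below 0. In the KAPA libraries the same genes had a median of -0.0349 in line 2 and -0.807 in the ARID1A+/- line, with 59 of 61 below 0, so the ARID1A+/- line shared the low stretch and line 2 did not. On chromosome 16, 22 genes between SHCBP1 and SALL1 had medians of -0.872 and -0.959 in the 2 pairs of line 1, with 21 below 0 in the KAPA pair. There line 2 had a median of 9.45e-05 and the ARID1A+/- line one of -0.0979, so this stretch was low in line 1 alone of the 3. On chromosome 12, 18 genes between PRIM1 and DTX3 had medians of -0.723 and -0.387 in line 1, 0.155 in line 2 and 0.104 in the ARID1A+/- line. On chromosome 19, 18 zinc finger and neighbouring genes between ZNF71 and ZNF551 had medians of -0.746 and -0.673 in line 1, 0.131 in line 2 and -0.173 in the ARID1A+/- line, and 20 genes between ZNF253 and ZNF254 had medians of -0.753 and -0.309 in line 1, 0.231 in line 2 and -0.0207 in the ARID1A+/- line. A stretch of 14 genes on chromosome 15, between ARPP19 and ZNF280D, had medians of -0.901 and -0.269 in line 1 and -0.529 in line 2, and so was not particular to line 1.

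Single genes of the stretches showed the same step. RNF4, a SUMO-dependent ubiquitin ligase on chromosome 4, was at 10.2 and 8.76 RPKM in line 1, 18.7 and 20.5 RPKM in line 2, 11 RPKM in the ARID1A+/- library, and 18.0 and 18.5 RPKM in control. SLBP, the stem-loop binding protein of histone mRNA on chromosome 4, was at 28.5 and 27.8 RPKM in line 1, 56.8 and 53.7 RPKM in line 2, 31.6 RPKM in the ARID1A+/- library, and 62.0 and 55.4 RPKM in control. In RNF4 (-0.93 ± 0.146, log2) and SLBP (-1.05 ± 0.114, edgeR adjusted p 0.0028) line 1 and the ARID1A+/- library were close together and below line 2 and control. SIAH1, a ubiquitin ligase on chromosome 16, was at 4.79 and 4.66 RPKM in line 1, 10.4 and 9.05 RPKM in line 2, 9.04 RPKM in the ARID1A+/- library, and 8.99 and 8.54 RPKM in control, a fall of 0.89 ± 0.131 (log2). ORC6, of the origin recognition complex on chromosome 16, was at 9.07 and 8.48 RPKM in line 1, 16.2 and 19.7 RPKM in line 2, 18.5 RPKM in the ARID1A+/- library, and 13.3 and 20.1 RPKM in control, a fall of 0.89 ± 0.186 (log2). BRD7, GPT2 and NKD1 lie in the chromosome 16 stretch, SHMT2 and INHBE in that of chromosome 12, and FGFR3 in that of chromosome 4. DNA copy number was not measured, and its part in these falls was not tested. Low runs were also bounded in the fit to all 6 libraries, by the same sliding median but with no minimum length. On chromosome 12 these include runs outside the stretch above, such as RAB5B to NABP2 and GTF2H3 to SCARB1. Leaving out all such runs on chromosomes 4, 12 and 16, 1848 genes passed against control. Without the control SMARTer library RNF4 (-0.99), SIAH1 (-0.92) and ORC6 (-1.16) no longer passed, and without the control KAPA library RNF4 (-0.90), SIAH1 (-0.87) and ORC6 (-0.64) did not; ORC6 was -0.59 without the line 1 KAPA library. Against line 2, where RNF4 was 1.01, SLBP 0.94, SIAH1 1.00 and ORC6 0.98 lower in line 1, ORC6 missed the threshold without the line 2 SMARTer (-1.01) or KAPA library (-0.92), and RNF4 without the line 2 KAPA library (-0.86).

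**Figure D5:**
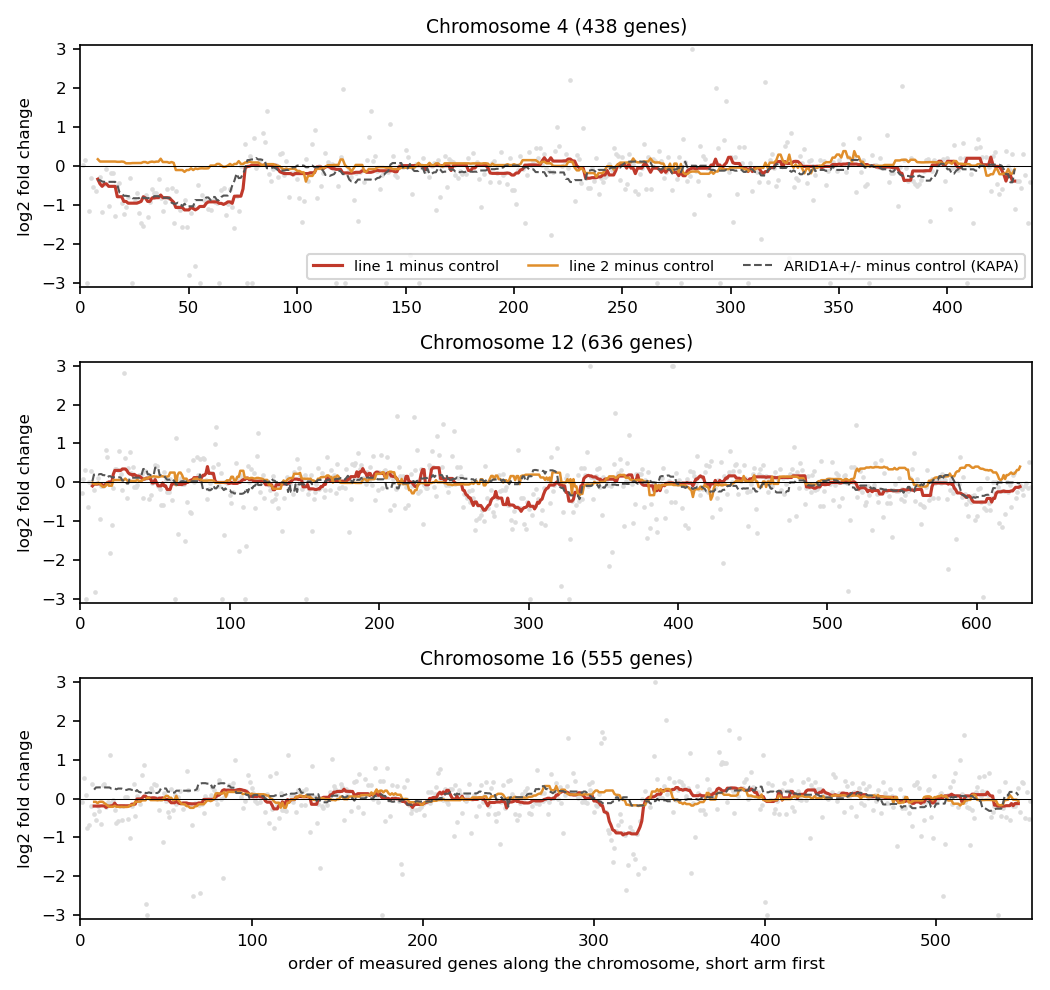
Sliding median over 15 genes of the log2 difference from control along chromosomes 4, 12 and 16, in gene order (x axis, rank of the gene), for line 1 (red), line 2 (orange) and the ARID1A+/- KAPA library (dashed grey), with single genes of line 1 as grey dots. The red line drops to about -1.0 at the start of chromosome 4, where the grey line drops with it, and within chromosome 16, where it drops alone.

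On chromosome 6, replication-dependent histone genes lay together above control in line 1. There 2 runs of 16 and 15 genes had medians of 1.02 and 0.852. Each held 5 rises (31.2% and 33.3%, against 4.76% of all genes). They were chosen in the fit itself, by a sliding median of at least 0.5, so medians above 0 follow from the choice. The medians in line 2 were -0.52 and -0.115. The run of 15 also holds the zinc finger genes ZNF391 and ZNF184, so its values are not those of histone genes alone. The RNA of replication-dependent histone genes lacks a poly(A) tail. The labels name both ribosomal RNA removal and polyadenylated RNA, so how RNA was selected is uncertain and its part was not tested.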

How the data were processed

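RNA of NGP cells and of ARID1A mutant lines was sequenced as single-end reads, per the labels. Alignment used HISAT2 2.1.0 and hg19, per the submitters' processing notes; for the counting program and annotation, no source used here names them. The authors deposited whole-number read counts, not normalized, for 28517 entries per library. They also deposited RPKM, which holds the same data: the count over the length of the entry and the library total. Use of strand in counting is not stated, so overlapping and antisense genes are uncertain. Total counts were between 24445301 and 43644361 per library.

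Counts were tested with edgeR 4.0.16 (R 4.3.3; quasi-likelihood, TMM scaling on full totals) over the 6 control and ARID1A-/- libraries. The model had terms for group and kit and 2 residual degrees of freedom. Benjamini-Hochberg adjustment covered the 14709 tested entries. The threshold was 0.05, and standard errors came from the log2 difference and its F statistic. Alternatives were DESeq2 1.42.0 as a test and as size factors, limma 3.58.1 on log2(RPKM + 1) and log2(RPKM + 0.1), also after quantile normalization, no filter, a mean RPKM of at least 1, no kit block, 4 libraries only, and each library left out. The kit, named in the labels, pairs the libraries: over the tested entries the KAPA minus SMARTer differences correlated at 0.457 between line 1 and control, 0.372 between line 1 and line 2, and 0.561 between line 2 and control. A chi-square per gene of 190 in line 1, 145 in line 2 and 154 in control showed that no library repeated another.

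Named genes were ARID1A; the 12 largest rises and falls against control with a mean RPKM of at least 1 in line 1 or control; the 10 furthest in each direction from both control and line 2; up to 4 members of each list with the smallest p; and the 5 most abundant genes at 0 in a group. Not all are printed, and some that the rule selects are not reported here. Those with systematic names were left out of the ranked parts. HAND1, HAND2, GATA3, PHOX2A, S100A11, HES1, TRIB3, the HOX genes beyond HOXA7, HOXA10, HOXA11 and HOXD13, and the genes and bounds of the neighbouring stretches fall outside this rule and were picked with their values in view. PDGFRB is likewise outside the rule. The groups, gene lists and comparisons were chosen with earlier results of these data known, and the stretches were added after seeing the data. The scripts were tested on simulated data.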

Additional observations from a re-analysis of the deposited data

Results flagged for a closer look

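Line 1 and line 2 carry the same genotype label and were set against the same control, so each difference between them past the threshold is a difference between 2 groups under 1 contrast. There were 1856 such genes (edgeR, line 1 minus line 2), and those named in the report are listed here as values with no explanation. Groups of 2 libraries are too small to look for a library that stands apart.

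Genes with few or no counts in a line are given as folds. In line 1, ARMCX5 was at least 461.4-fold, MAP10 at least 196.8-fold, PTPRZ1 at least 88.66-fold, DNER at least 70.86-fold and NPNT at least 33.55-fold lower than in line 2. The line 2 level was 2526 times that of line 1 for SPIN3, 371.7 times for NETO1, 215.1 times for DTNA, 138.4 times for PLA2G3 and 77.17 times for RASSF8. It was 11.5 times for NMU, 45.18 times for NTRK3 and 50.94 times for MET. In the other direction, line 1 was at least 499.5-fold higher for TRIM58, at least 105.2-fold for HDHD3 and at least 6.492-fold for HOXA9. The line 1 level was 188.1 times that of line 2 for NUDT16, 79.36 times for SOWAHD, 33.72 times for FAM71E1, 52 times for CHRM1, 93.97 times for S100A11, 13.63 times for HOXA6 and 7.682 times for HOXA10.

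The remaining values are log2 differences, line 1 minus line 2. Genes of chromatin, transcription and catecholamines gave 1.75 for SMARCA2, -0.631 for BRD7, 2.92 for EYA1, 2.16 for TFAP2B, 1.99 for HAND1, 4.99 for DBH, 0.887 for SLC6A2, 1.2 for DDC and -1.02 for MAOA. Neuronal, mesenchymal and matrix genes gave 4.61 for GRIP1, 1.2 for NEFH, 1.4 for GAP43, -2.48 for CACNA1H, 3.91 for LGALS1, 1.9 for MMP2, -1.75 for IGFBP3, 2.75 for COL16A1, 2.35 for COL3A1, 2.76 for COL1A1 and 2.4 for LUM. HOX genes gave 3.53 for HOXA5, 1.02 for HOXA7, 1.08 for HOXC6, 1.56 for HOXD4, 2.61 for HOXD10, 2.76 for HOXD11 and 2.43 for HOXD13. Signalling and division genes gave 2.49 for NGFR, 1.21 for TCF7L2, 3.21 for HES1, -0.746 for HES6, -3.82 for INHBE and 1.02 for ASPM. UBTFL1 and LIX1 gave 3.09 and 1.92. Genes of amino acid stress gave -1.64 for GPT2, -1.24 for SHMT2, -1.58 for TRIB3, -0.539 for CBS and -2.19 for SESN2. Genes of the low stretches gave -1.01 for RNF4, -0.938 for SLBP, -1 for SIAH1 and -0.979 for ORC6.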

How the results depend on the processing

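With no replicate block (no term for the kit), 482 genes passed against control (100 rises, 382 falls) in place of 1938, and 387 in place of 1856 against line 2. With 1 library left out, between 433 (without the control SMARTer library) and 3091 (without the line 1 KAPA library) passed against control, and between 721 (without the line 2 KAPA library) and 2426 (without the line 1 KAPA library) against line 2; the cause was not tested. A left-out library leaves 1 sample in its group, which is assumed to vary like the other groups. With DESeq2, ARID1A was at -0.3793 with an adjusted p of 0.0401, and over all alternatives its adjusted p lay between 0.0401 and 0.325. The other alternatives kept both counts within 1.5 times, or are given in the report. Of 163 calls for the named genes, which leave out TBX18, SIX4, SOX9, HES4 and HES6, 0 changed sign under any alternative. With no replicate block 62 no longer passed, with DESeq2 7, and with limma 15 on log2(RPKM + 1), 10 on log2(RPKM + 0.1) and 18 after quantile normalization. Without the control SMARTer library 42 no longer passed, and without the line 1 SMARTer or KAPA library 4 and 3. With 2 libraries per group, a difference that misses the threshold is not shown to be absent.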
